A study of Rattus norvegicus with 9 samples.

Results

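The genes described here encode the signalling route of interleukin 4 and of interleukin 10 in macrophages and genes known to lie downstream of it: Il10, Il10ra, Il4r, Stat3, Stat6, Socs3, Egr2, Klf4, Chi3l1 and Tgm2. They were taken by name from the platform annotation, through probesets that carry a single gene symbol, and all 10 were found among 18166 such genes. Each was represented by 1 probeset. All 10 passed the filter on low signal (a mean of at least 4.16 on the log2 scale, the 30th percentile of all probesets), so that all were among the 14014 genes tested.

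RNA came from hepatic macrophages of male Sprague-Dawley rats without a transgene or deletion named in the labels, which give no age. The 9 arrays form 3 groups of 3 rats: rats with partial portal vein ligation (PPVL) whose cells were collected after 3 days, rats with the same ligation after 10 days, and sham rats, in which the portal vein was freed but not tied. PPVL narrows the vein over a blunt needle and serves as a model of portal hypertension. No day is given for the sham rats and the days after ligation have no sham rats of their own, so that time since surgery and the course after ligation cannot be told apart. Array medians lay between 5.21 and 5.26, and pairs of arrays correlated at 0.987 to 0.993 across probesets.

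Interleukin 4 and interleukin 13 bind receptors that contain the chain encoded by Il4r, and Janus kinases then activate the transcription factor STAT6. In macrophages this switches on a set of genes for arginase, lectins, chitinase-like proteins and chemokines, known as alternative activation. Interleukin 10 binds a receptor of Il10ra and Il10rb and acts through STAT3, which induces Socs3 and lowers the output of inflammatory cytokines. Kupffer cells, the resident macrophages of the liver, meet bacterial products carried by portal blood and are a known source of interleukin 10.

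Before the values, the promoters of the 3 genes that passed the test at 3 days are shown. Each runs from 250 bases before to 50 bases after the gene's start, 5′ to 3′ on the gene's strand, from RefSeq on build GRCr8. Egr2 is at chr20:21054392-21054691 (minus strand), Klf4 at chr5:75078543-75078842 (minus strand) and Chi3l1 at chr13:48193589-48193888 (plus strand). Capitals mark matches to the motifs named after the sequences.
Egr2: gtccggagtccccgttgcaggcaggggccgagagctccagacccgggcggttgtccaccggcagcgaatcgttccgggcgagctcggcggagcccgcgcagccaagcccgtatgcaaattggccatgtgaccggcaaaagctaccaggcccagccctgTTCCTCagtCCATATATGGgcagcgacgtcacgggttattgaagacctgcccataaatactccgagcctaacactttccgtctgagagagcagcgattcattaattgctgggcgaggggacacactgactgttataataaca
Klf4: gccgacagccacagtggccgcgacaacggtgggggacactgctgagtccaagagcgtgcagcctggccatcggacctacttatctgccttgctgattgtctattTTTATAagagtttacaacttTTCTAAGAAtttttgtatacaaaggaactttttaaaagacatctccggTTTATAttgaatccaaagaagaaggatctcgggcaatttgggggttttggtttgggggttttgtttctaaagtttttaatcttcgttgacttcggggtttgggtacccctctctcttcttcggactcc
Chi3l1: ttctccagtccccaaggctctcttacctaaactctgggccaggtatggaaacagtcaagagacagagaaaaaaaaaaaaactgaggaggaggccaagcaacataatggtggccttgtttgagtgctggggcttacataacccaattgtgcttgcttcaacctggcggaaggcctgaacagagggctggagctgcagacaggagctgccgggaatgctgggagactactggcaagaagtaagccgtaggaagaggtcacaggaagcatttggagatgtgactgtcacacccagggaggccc

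RefSeq sequences were found for 8 of the 10 genes, not for Il10 and Tgm2. In these 8 windows 6 motifs were searched on both strands: the STAT element TTCNNNGAA, the STAT6-type element with 1 more base between its ends, the EGR element GCGTGGGCG, the TATA box TATAAA, the PU.1 core GAGGAA and the CArG box, which binds serum response factor. The Egr2 window held a CArG box at position -83, counted from the start, which 1.64% of 33469 promoters of this length hold, and a PU.1 core on the minus strand at -92 (27.6% of promoters). The Klf4 window held TTCNNNGAA as TTCTAAGAA at -126 (8.87% of promoters), and the TATA box on the minus strand at -146 and -78 (14.2% of promoters). Stat6 held a PU.1 core at -140. The CArG and PU.1 motifs were named after values had been seen, so their matches are a description only. No match was found in the other 5 windows, those of Chi3l1, Il4r, Il10ra, Stat3 and Socs3. Each window covers only 300 bases around the RefSeq start. Sites outside it were not searched, and whether these starts, that of Socs3 among them, are the ones used in these cells was not tested. A match or its absence therefore describes the window, which need not be the promoter in use. The longer STAT element and GCGTGGGCG occurred in none of the 8, and in 7.28% and 0.544% of all promoters. The windows held 30 CpG pairs for Socs3, 23 each for Egr2 and Il4r, 19 for Il10ra, 16 for Stat3, 14 for Stat6, 11 for Klf4 and 3 for Chi3l1, where the median promoter had 7.

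Egr2, Klf4 and Chi3l1 rose after ligation by 1.41- to 1.58-fold at 3 days, and Egr2 was the only member past the test at 10 days. The Klf4 and Chi3l1 calls were lost in every fit without 1 array, and the 10-day call of Egr2 was kept in 3 of 9. The cytokine gene Il10, both receptor genes and Stat3 had lower means than sham at both days, and none of them passed the test. In all, 3 of 10 members rose at 3 days and none fell, where 2.86% of all genes tested passed (2.15% upwards and 0.714% downwards). At 10 days 1 of 10 rose, where 0.735% of all genes passed (0.492% upwards and 0.243% downwards). In what follows a value is a log2 signal, a difference is a log2 difference ± its standard error (SE) between groups of n = 3 rats, and an adjusted p comes from limma's moderated test, adjusted over the 14014 genes by the Benjamini-Hochberg method.

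**Figure D1:**
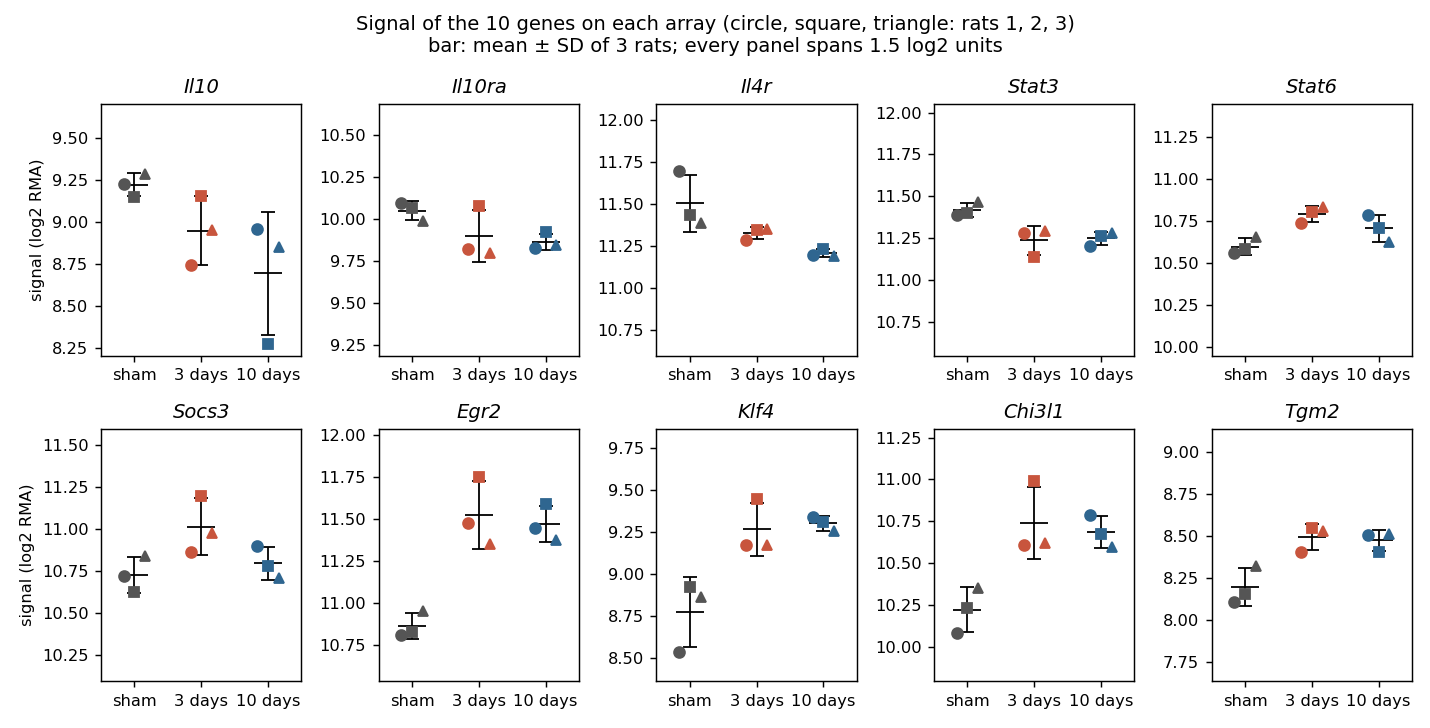
Signal of the 10 genes on every array (vertical axis, log2 units, each panel spanning 1.5 units) in sham, 3-day and 10-day rats, with symbols for rats 1, 2 and 3 and bars for mean ± SD. The sham rats sit below all 6 ligated rats for Egr2, Klf4, Chi3l1 and Tgm2, and above all 6 for Il4r and Stat3.

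Il10 encodes interleukin 10 itself. Its signal was 9.23, 9.15 and 9.29 in the sham rats, 8.74, 9.15 and 8.95 at 3 days, and 8.96, 8.27 and 8.85 at 10 days. All 3 rats at 10 days were below all sham rats, while at 3 days rat 2 reached the sham level. The difference from sham was -0.27 ± 0.17 at 3 days (adjusted p = 0.502) and -0.53 ± 0.17 at 10 days (adjusted p = 0.164), with a 95% interval at 10 days of -0.90 to -0.15. Neither passed the test. Rat 2 at 10 days, at 8.27, was the lowest of the 9, and without it the difference at 10 days was -0.32.

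Il10ra encodes the chain that binds interleukin 10. Its group means were 10.05 ± 0.06 in sham rats, 9.90 ± 0.15 at 3 days and 9.86 ± 0.05 at 10 days (SD, n = 3). The groups overlapped at 3 days, where rat 2 had 10.08, and did not at 10 days. The differences of -0.15 ± 0.08 and -0.19 ± 0.08 did not pass (adjusted p = 0.427 and 0.300). The difference at 3 days was -0.24 without 3-day rat 2 and -0.10 without 3-day rat 3.

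Il4r, the chain shared by the receptors of interleukin 4 and 13, had signals of 11.70, 11.43 and 11.38 in sham rats, 11.29, 11.35 and 11.35 at 3 days, and 11.20, 11.23 and 11.19 at 10 days. The 3 groups did not overlap with one another, in the order sham, 3 days, 10 days. The differences from sham were -0.18 ± 0.08 at 3 days and -0.30 ± 0.08 at 10 days (adjusted p = 0.349 and 0.118). Sham rat 1 stood highest, and without it the differences were -0.08 and -0.20.

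Stat3 and Stat6 encode the transcription factors of these receptors, and their means moved in opposite directions. Stat3 was 11.42 ± 0.04 in sham rats, 11.24 ± 0.09 at 3 days and 11.25 ± 0.04 at 10 days (SD, n = 3), and both ligated groups were below sham with no overlap. Stat6 was 10.60 ± 0.05, 10.79 ± 0.05 and 10.71 ± 0.08, above sham with no overlap at 3 days and with overlap at 10 days. The differences were small: -0.18 ± 0.06 and -0.17 ± 0.06 for Stat3 (adjusted p = 0.190 and 0.227), and 0.19 ± 0.06 and 0.11 ± 0.06 for Stat6 (adjusted p = 0.161 and 0.436). None passed the test.

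Socs3 encodes a feedback inhibitor of cytokine receptors that is induced through STAT3. Its signal was 10.72, 10.62 and 10.84 in sham rats, 10.86, 11.20 and 10.97 at 3 days, and 10.89, 10.78 and 10.70 at 10 days. The 3-day rats were above all sham rats, and the 10-day rats overlapped both other groups. The difference was 0.28 ± 0.10 at 3 days (adjusted p = 0.175) and 0.07 ± 0.10 at 10 days (adjusted p = 0.791). Between the days it was -0.22 ± 0.10, with an unadjusted p of 0.0490 and an adjusted p of 0.441.

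Egr2 encodes a zinc finger transcription factor which in mouse macrophages is induced by interleukin 4 and is needed for part of the alternative programme. Its signal was 10.81, 10.83 and 10.95 in sham rats, 11.48, 11.75 and 11.35 at 3 days, and 11.44, 11.59 and 11.38 at 10 days. Every ligated rat was above every sham rat, and the ligated groups overlapped each other. Egr2 rose by 0.66 ± 0.10 at 3 days (1.58-fold, 95% interval 0.43 to 0.90, adjusted p = 0.0115) and by 0.61 ± 0.10 at 10 days (1.53-fold, 0.38 to 0.84, adjusted p = 0.0449). It was also the only 1 of the 10 past the moderated F test over the 3 groups (adjusted p = 0.0217), which 2.35% of all genes passed. The call at 3 days was kept in each of 9 fits that left out 1 array (adjusted p 0.0108 to 0.0484) and was lost with only the 2 groups in the fit (0.0524). The call at 10 days was lost in the 6 fits without a sham or a 10-day array, with adjusted p up to 0.150 and differences from 0.55 to 0.66. It was also lost without the filter (0.0576), with all probesets tested (0.0979) and with the replicate number as a block in the fit (0.0863).

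Klf4 encodes a transcription factor that in mouse macrophages acts with STAT6 on alternative activation genes. Its signal was 8.53, 8.92 and 8.86 in sham rats, 9.17, 9.45 and 9.17 at 3 days, and 9.34, 9.31 and 9.26 at 10 days, without overlap between sham and either ligated group. It rose by 0.49 ± 0.11 at 3 days (1.41-fold, 95% interval 0.24 to 0.74, adjusted p = 0.0494). At 10 days its difference of 0.53 ± 0.11 did not pass (adjusted p = 0.0674). Sham rat 1 was the lowest array, and without it the differences were 0.37 and 0.41.

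Chi3l1 encodes a secreted chitinase-like protein of macrophages and neutrophils that binds sugars without cleaving chitin. Its signal was 10.09, 10.23 and 10.35 in sham rats, 10.61, 10.99 and 10.62 at 3 days, and 10.79, 10.68 and 10.60 at 10 days. Again every ligated rat was above every sham rat. It rose by 0.51 ± 0.11 at 3 days (1.43-fold, 95% interval 0.26 to 0.77, adjusted p = 0.0444), and its difference of 0.46 ± 0.11 at 10 days did not pass (adjusted p = 0.0893). Both the Chi3l1 and the Klf4 call at 3 days lay close to the threshold and were lost in each of the 9 fits without 1 array, with adjusted p from 0.0537 to 0.141 and from 0.0652 to 0.152. Both were also lost without the filter, with all probesets and with only the 2 groups, with adjusted p from 0.0565 to 0.119 for Chi3l1 and from 0.0625 to 0.144 for Klf4. With the replicate block both calls were lost as well (0.0802 for Chi3l1 and 0.0564 for Klf4).

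Tgm2 encodes tissue transglutaminase, an enzyme that crosslinks proteins and is induced by interleukin 4 in human and mouse macrophages. Its signal was 8.10, 8.15 and 8.32 in sham rats, 8.40, 8.55 and 8.53 at 3 days, and 8.50, 8.40 and 8.51 at 10 days, with all ligated rats above all sham rats. The differences of 0.30 ± 0.08 and 0.28 ± 0.08 did not pass (adjusted p = 0.0726 and 0.112).

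**Figure D2:**
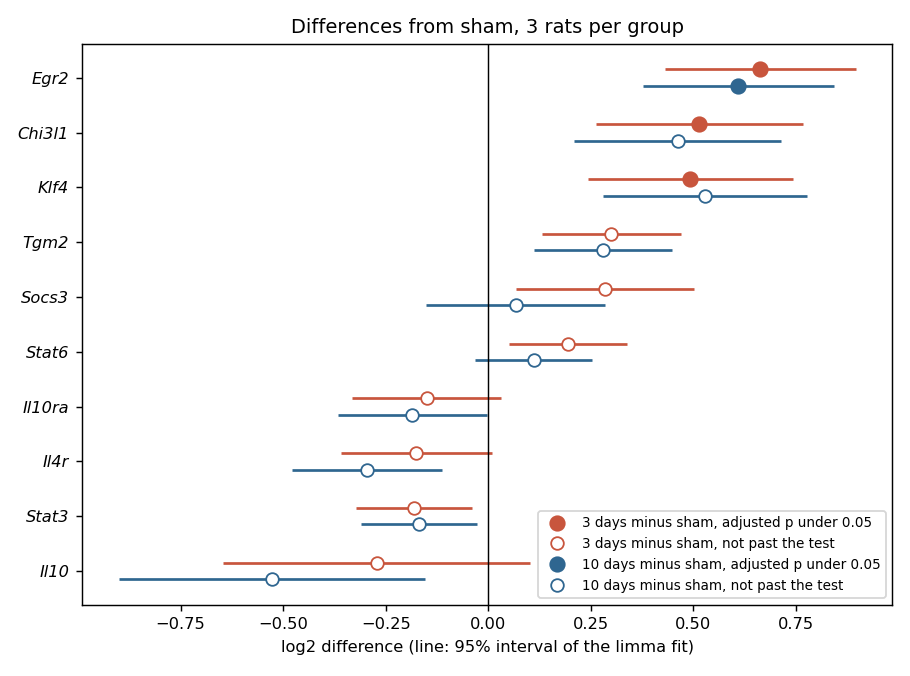
Log2 difference of each gene from sham (horizontal axis) at 3 and at 10 days, with the 95% interval of the limma fit as a line and a filled point where adjusted p was under 0.05. The 3-day and 10-day points of a gene lie on the same side of 0 for all 10 genes, and the 4 filled points belong to Egr2 at both days and to Chi3l1 and Klf4 at 3 days.

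At 3 days 8 of the 10 members had no overlap with sham, 6 above and 2 below, where 18.8% of all genes had none (10.1% above and 8.66% below). At 10 days it was again 8, with 4 above and 4 below, where the share over all genes was 21% (9.88% above and 11.1% below). The median absolute difference of the members was 0.28 at 3 days and 0.29 at 10 days, beside 0.082 and 0.088 over all genes. The signed medians were 0.24 and 0.088, beside -0.014 and -0.0004 over all genes; the members split in direction. At an unadjusted p under 0.05 there were 7 and 8 members, where 15.5% and 16.2% of all genes were under it. Both comparisons share the sham arrays. By mean signal all members lay between the 87.0th (Tgm2) and the 99.0th percentile (Il4r) of all probesets. The genes tested reach down to the filter on low signal. Shares and medians over all genes, here and elsewhere, are therefore not matched for signal. The part of the members' high signal in these contrasts was not tested.

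Between the days the members differed little. With limma 0 of 10 passed for 10 days against 3 days, where 0.0714% of all genes did (0.0214% upwards and 0.05% downwards), and 1, Socs3, had an unadjusted p under 0.05, where 11.3% of all genes did. The median absolute difference was 0.054, beside 0.081 over all genes. For Egr2 the difference was -0.05 ± 0.10 with a 95% interval of -0.29 to 0.18, for Chi3l1 -0.05 ± 0.11 (-0.31 to 0.20), for Klf4 0.04 ± 0.11 (-0.21 to 0.28) and for Il10 -0.26 ± 0.17 (-0.63 to 0.12). The directions for Egr2, Chi3l1, Klf4, Il10ra, Stat3 and Tgm2 turned in at least 1 fit without 1 array, and those of Egr2 and Tgm2 also under quantile normalization. Only Il4r did not overlap between the days, 1 of 10 where 14.6% of all genes did not (6.9% above and 7.74% below).

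Single rats stood high for several members at once. At 3 days rat 2 had the highest signal of its group for 7 of 10 members (Egr2, Chi3l1, Klf4, Il10, Il10ra, Socs3 and Tgm2), while it was highest for 28.4% of all genes tested. Among sham rats, rat 3 was highest for 7 members and for 33.2% of all genes. Without 3-day rat 2 the rises at 3 days were 0.55 for Egr2, 0.39 for Chi3l1 and 0.40 for Klf4.

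The macrophage label was set against its markers. Cd68, Csf1r, Adgre1 and Lyz2, genes of macrophages in general, had mean signals of 11.17, 10.25, 8.55 and 12.85. Of the Kupffer cell genes, Cd163 (4.50), Timd4 (4.40) and Vsig4 (4.26) lay close to the filter at 4.16. Clec4f (5.03) and Marco (5.27) lay at the 46.5th and 50.6th percentile of all probesets. Markers of other cells were also measured above it, among them Cd3e of T cells (9.48), Ncr1 of natural killer cells (7.58) and S100a9 of neutrophils (9.19), so that the preparations were not macrophages alone. In such bulk RNA fewer cells of a type and less RNA per cell cannot be told apart.

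Scores of marker lists were set beside the members' differences. Between the days the mean monocyte score went from 0.38 to 0.01 and the neutrophil score from 0.34 to -0.11. Egr2, Klf4 and Chi3l1 differed little between the days. A list's score averages its tested genes after each was centred on its own mean of 9 arrays. The macrophage list shares Mrc1, Cd163 and Marco with the target lists below. Its score gives Cd163, Timd4 and Vsig4, close to the filter, the same weight as the other genes. Beside the rises of Egr2, Klf4 and Chi3l1, the score of 15 hepatic macrophage genes ran from -0.27 to -0.22 in sham rats, from 0.01 to 0.52 at 3 days and from 0.03 to 0.08 at 10 days, with 2 and 1 of the 15 risen. The score of 8 monocyte genes ran from -0.60 to -0.25, from 0.27 to 0.46 and from -0.08 to 0.08, with 6 of 8 risen at 3 days and 1 at 10 days. That of 11 neutrophil genes ran from -0.89 to 0.13, from -0.01 to 0.61 and from -0.43 to 0.10, with 2 risen at 3 days and none at 10 days by limma (1 at an unadjusted p under 0.05). The macrophage score of 0.52 belonged to 3-day rat 3, and without that rat the differences at 3 days were larger, 0.75 for Egr2, 0.57 for Chi3l1 and 0.54 for Klf4. The neutrophil score of -0.89 belonged to sham rat 1, without which these differences were 0.64, 0.45 and 0.37. The part of these shifts in the members' rises was not tested.

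Beside the lower means of Il10, Il10ra, Il4r and Stat3, genes that lymphocytes also express, the score of 13 T cell genes ran from 0.13 to 0.29 in sham rats, from -0.21 to 0.04 at 3 days and from -0.27 to -0.06 at 10 days. In that list 1 gene fell at each day, and 9 and 11 of the 13 had an unadjusted p under 0.05. That of 9 natural killer cell genes ran from 0.15 to 0.25, from -0.31 to 0.19 and from -0.26 to -0.16, with none past limma's test (1 and 6 at an unadjusted p under 0.05). B cells express Il4r and Il10 too, and the score of 10 B cell genes moved the other way, from -0.35 to -0.30 in sham rats, -0.11 to 0.36 at 3 days and 0.05 to 0.43 at 10 days, with 2 genes risen at 3 days. Their part was not tested. The score of 8 hepatocyte genes ran from -0.27 to -0.05 in sham rats, from -0.18 to 0.26 at 3 days and from 0.03 to 0.10 at 10 days. In that list 1 gene rose at 3 days and none passed at 10 days, when 8 of 8 had differences above 0 (49.8% of all genes). The scores of 4 eosinophil and mast cell, 5 sinusoidal endothelial and 6 stellate cell genes had group means between -0.093 and 0.087. Of the eosinophil and mast cell genes 1 fell at 3 days. That of 5 platelet genes had group means of -0.06, 0.37 and -0.31. The part of these lists in the members' differences was not tested.

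**Figure D3:**
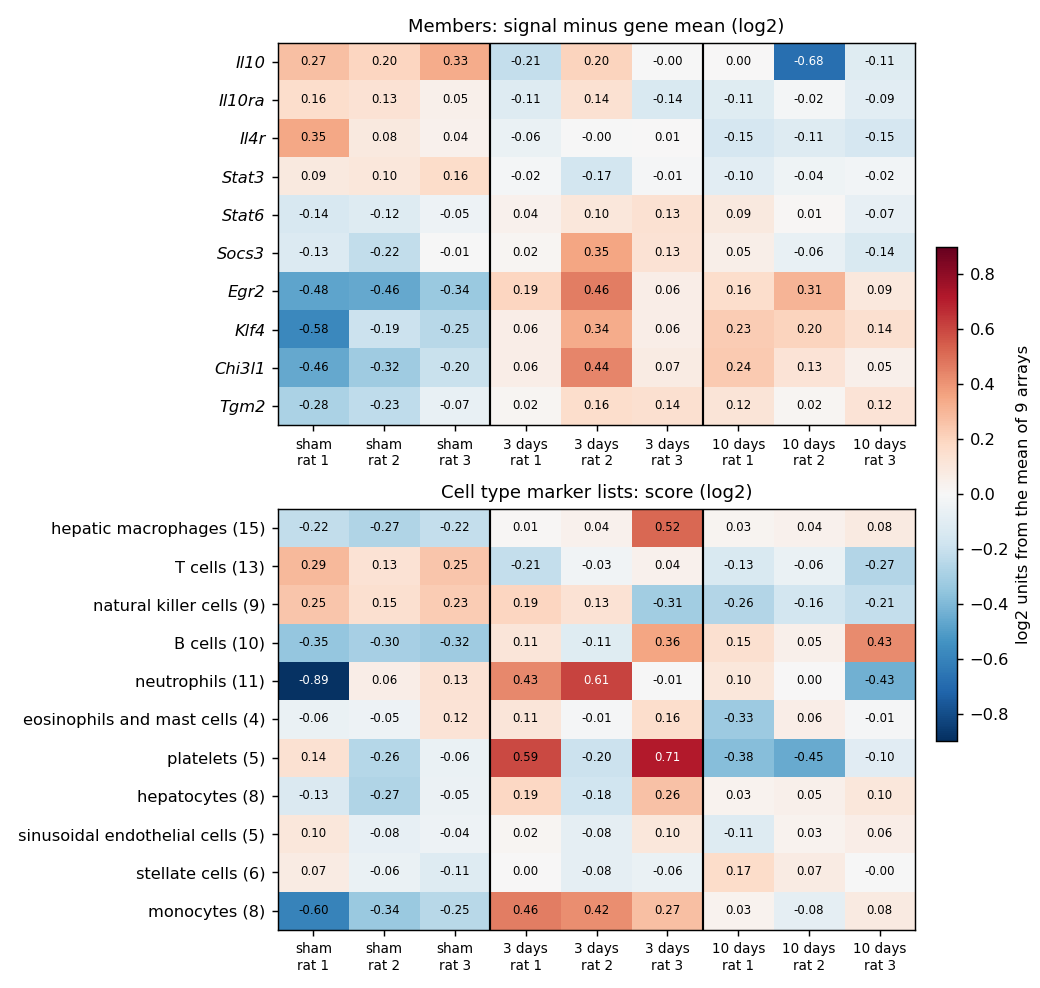
Columns are the 9 arrays. The upper panel gives each gene's log2 signal centred on its own mean, the lower panel the score of each marker list (number of genes in brackets), on one colour scale from -0.9 to 0.9. Egr2, Klf4 and Chi3l1 are below 0 in the 3 sham rats and above 0 in all ligated rats, as are the scores for hepatic macrophages, and T cell scores are above 0 in the sham rats.

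Further genes of the pathway were taken from 8 lists, with 89 of 98 genes tested. At 3 days 3 of the 89 rose and none fell (3.37%, beside 2.86% of all genes in either direction and 2.15% upwards). At 10 days none of the 89 passed with limma, nor did any between the days (25 and 12 at an unadjusted p under 0.05, where 16.2% and 11.3% of all genes were under it). At 3 days 27 of the 89 had an unadjusted p under 0.05, where 15.5% of all genes did. Of the 3 risers 2, Arg1 and Ccl24, stood in the list of interleukin 4 and STAT6 targets.

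In that list of 21 tested target genes, 2 rose at 3 days, where 2.15% of all genes did. Differences above 0 were found for 16, where 45% of all genes had them, with a median of 0.18 beside -0.014 over all genes. An unadjusted p under 0.05 was found for 9 of the 21. Arg1, arginase 1, which turns arginine into ornithine, had means of 8.63 ± 0.10, 9.93 ± 0.13 and 9.56 ± 0.50 (SD, n = 3) in sham, 3-day and 10-day rats. It rose by 1.30 ± 0.20 at 3 days (adjusted p = 0.0113), and its difference of 0.94 ± 0.20 at 10 days did not pass (adjusted p = 0.0698). Beside it, the hepatocyte score had group means of -0.15, 0.09 and 0.06 in sham, 3-day and 10-day rats. The part of hepatocyte RNA in the Arg1 values was not tested. Ccl24, an eosinophil-attracting chemokine, had means of 5.23 ± 0.21, 6.80 ± 0.56 and 6.32 ± 0.20, and rose by 1.56 ± 0.24 at 3 days (adjusted p = 0.0106, and 0.0705 at 10 days for a difference of 1.08). The Ccl24 call at 3 days was lost with only the 2 groups in the fit (adjusted p = 0.0617). Both had all ligated rats above all sham rats. The mannose receptor Mrc1 differed by 0.73 ± 0.22 at 3 days and 0.19 ± 0.22 at 10 days (adjusted p = 0.131 and 0.732). The chemokines Ccl17 and Ccl22, attractants of T cells, differed by 0.45 ± 0.42 and -0.57 ± 0.20 at 3 days (adjusted p = 0.689 and 0.195). At 10 days the list's median was 0.044, and 12 of 21 were above 0, where 49.8% of all genes were. Retnla and Chi3l3 (also called Chil3), which mark alternative activation in mice, were below the filter and were not tested.

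The ligands, partner receptors, kinases and signalling partners of interleukin 4 and 13 gave no call among 10 tested genes at either day (medians -0.046 and -0.12), where limma gave 2 and 3 of them an unadjusted p under 0.05. Il4 itself had means of 8.43 ± 0.42, 8.10 ± 0.39 and 7.80 ± 0.58 (SD, n = 3), and its difference at 10 days, -0.63 ± 0.31, did not pass (adjusted p = 0.352). Il13ra1, which pairs with the Il4r chain, differed by 0.66 ± 0.19 at 3 days (adjusted p = 0.116), with the 3-day rats above all sham rats and sham rat 1 at 7.30 the lowest array. The kinase gene Jak3, which acts with the common chain Il2rg in lymphocytes, differed by -0.20 ± 0.07 and -0.23 ± 0.07 (adjusted p = 0.169 and 0.141). Il2rg differed by -0.04 ± 0.06 at 3 days.

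On the interleukin 10 side, 1 of 10 genes for the partner receptor and for other cytokines that act through STAT3 rose at 3 days, and none passed at 10 days (medians 0.11 and 0.078). It was Osm, which encodes oncostatin M, a cytokine of the interleukin 6 family. Its means were 8.89 ± 0.11 in sham rats, 9.77 ± 0.17 at 3 days and 9.23 ± 0.01 at 10 days (SD, n = 3). The 3 groups did not overlap with one another. Osm rose by 0.88 ± 0.09 at 3 days (adjusted p = 0.00245), and the difference was 0.34 ± 0.09 at 10 days (adjusted p = 0.111) and -0.54 ± 0.09 between the days (adjusted p = 0.126). Il10rb, the partner of Il10ra, differed by 0.09 ± 0.07 at both days. Lifr, a receptor chain for leukaemia inhibitory factor, differed by -0.32 ± 0.08 at 3 days (adjusted p = 0.0896).

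None of 18 tested interleukin 10 and STAT3 targets passed limma's test at either day (medians 0.068 and 0.034), and 7 at each day had an unadjusted p under 0.05. The nuclear regulator Bcl3 differed by -0.58 ± 0.13 at 3 days (adjusted p = 0.0519), just outside the threshold, and the receptor gene Il21r by -0.43 ± 0.11 at 10 days (adjusted p = 0.0977). Il1rn, which encodes the antagonist of the interleukin 1 receptor, differed by 0.41 ± 0.11 at 3 days (adjusted p = 0.0828), the opposite side from Bcl3.

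Families related to the members were also counted. None of 7 genes for STAT proteins and their regulators, 7 SOCS family genes, 13 EGR, KLF and NAB genes and 7 chitinase-like and transglutaminase genes passed limma's test at either day (medians at 3 days -0.031, 0.035, 0.12 and -0.055). At an unadjusted p under 0.05 there were 0, 1, 5 and 1 of them at 3 days, and 1, 2, 4 and 0 at 10 days. Of the 13 EGR, KLF and NAB genes 9 had differences above 0 at 3 days, where 45% of all genes did. Egr1, an immediate early gene and close relative of Egr2, was at 12.31 ± 0.02, 12.31 ± 0.11 and 12.24 ± 0.07 (SD, n = 3) in the 3 groups, with differences from sham of -0.002 ± 0.07 and -0.08 ± 0.07. Egr3 differed by 0.37 ± 0.13 and 0.35 ± 0.13 (adjusted p = 0.176 and 0.203). Klf10 differed by 0.48 ± 0.13 at 3 days, Klf13 by -0.30 ± 0.08 at 10 days, Klf2 by -0.06 ± 0.11 and Klf6 by 0.12 ± 0.11 at 3 days, and none of these passed. Among SOCS genes Socs7 differed by -0.36 ± 0.08 at 3 days (adjusted p = 0.0590) and Socs4 by 0.25 ± 0.08 at 10 days (adjusted p = 0.191). Stat5a differed by -0.28 ± 0.09 and Stat5b by -0.17 ± 0.08 at 10 days (adjusted p = 0.171 and 0.326). F13a1, the transglutaminase of clotting, differed by 0.75 ± 0.22 at 3 days and -0.14 ± 0.22 at 10 days (adjusted p = 0.117 and 0.815). Chit1, a true chitinase, had a mean of 4.33 in sham rats, close to the filter, and differed by -0.18 ± 0.08 at 3 days (adjusted p = 0.350).

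**Figure D4:**
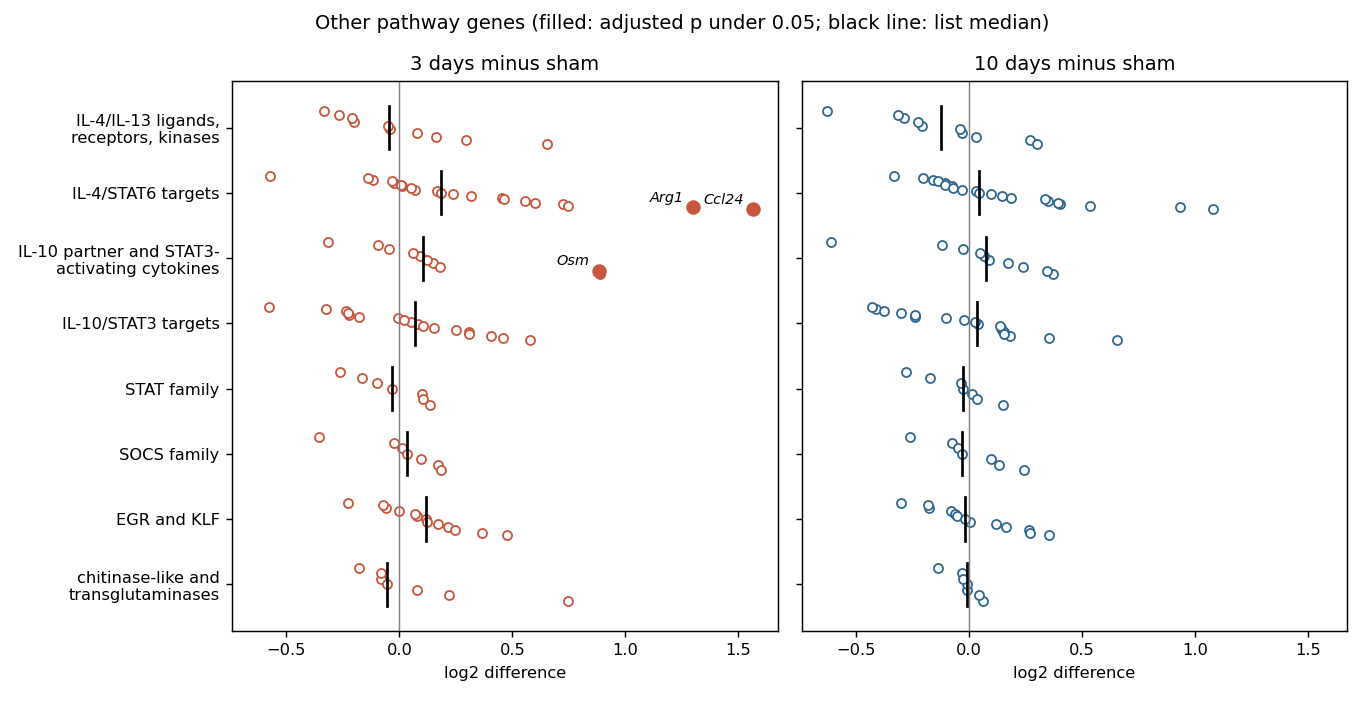
Log2 differences from sham (horizontal axis) of the tested genes of 8 pathway lists at 3 days (left) and 10 days (right), with filled points where adjusted p was under 0.05 and a black line at each list's median. The 3 filled points are Arg1, Ccl24 and Osm at 3 days, and the right panel has none.

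Profiles most like those of the members past the test were sought among all tested genes, by the root mean square distance between log2 values centred on each gene's mean over the 9 arrays. For Egr2 these were Daglb (distance 0.088), Nrp2 (0.089) and Atg4c (0.092), where the median distance of all genes was 0.34. Daglb and Nrp2 rose at both days (0.60 and 0.61, and 0.56 and 0.54). For Chi3l1 they were Nfam1 (0.055), Sirpa (0.058) and Spi1 (0.062), beside a median of 0.29, and for Klf4 they were Itgax (0.058), Rnf149 (0.072) and Nfam1 (0.076), beside 0.30. Spi1, which encodes the myeloid transcription factor PU.1, differed by 0.43 ± 0.11 at 3 days and 0.36 ± 0.11 at 10 days (adjusted p = 0.0682 and 0.134). The phagocyte receptor gene Sirpa rose at 3 days by 0.45 ± 0.09 (adjusted p = 0.0365). Genes were chosen here for their likeness, so their values are a description.

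**Figure D5:**
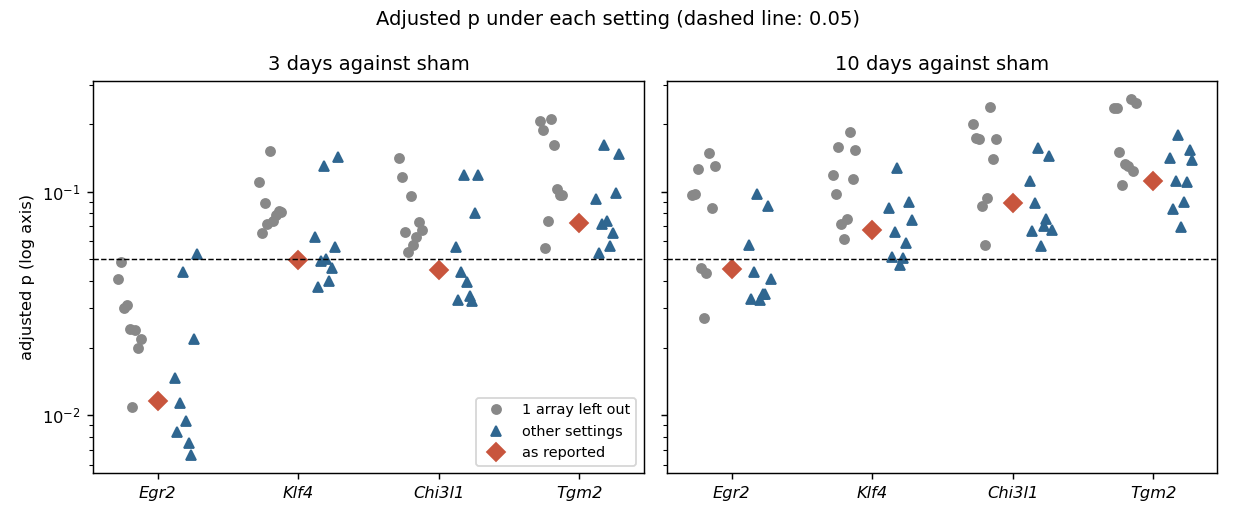
Adjusted p (vertical axis, logarithmic) of Egr2, Klf4, Chi3l1 and Tgm2 at 3 and 10 days against sham, as reported, with 1 array left out (9 fits) and under 9 other settings, with a dashed line at 0.05. At 3 days the points for Egr2 lie below the line except 1 at 0.0524, while those of Klf4 and Chi3l1 lie on both sides.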

How the data were processed

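Total RNA of 9 hepatic macrophage preparations was labelled with biotin and hybridised to 1-colour Affymetrix arrays. The deposited values are log2 probeset signals of 36685 probesets, for which the authors used RMA (robust multi-array averaging) and Transcriptome Analysis Console per the submitters' processing notes (versions not stated). No further scaling was applied. Probesets were named from the platform annotation: 18511 carried 1 symbol (18166 genes), 575 several and 17599 none. The probeset with the highest mean stood for a gene, and a gene was tested where this mean reached the 30th percentile (4.16), which left 14014.

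Models were fitted to all 9 arrays with limma 3.58.1 in R 4.3.3 (6 residual and 3.59 prior degrees of freedom, 2-sided moderated tests, Benjamini-Hochberg adjustment over all tested genes, threshold 0.05). For 1 gene, an exact permutation test between groups of 3 has a smallest p of 0.1. The number of arrays limits the precision, and the median SE of a difference was 0.0861.

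The 10 members, the pathway and marker lists (215 genes, 20 of them not matched to a probeset with a single symbol, 15 below the filter and 1 matched through a synonym) and the settings were chosen with earlier results of these data known. Arg1, Ccl24, Mrc1 and some markers stood in such earlier lists. Named are all members, pathway list genes past a test (marker lists are given as scores and counts), the 2 of each pathway list with the smallest F test p, and the 3 profiles most like each member past a test. Mrc1, Ccl17, Ccl22, Il4, Il2rg, Il10rb, Il1rn, Egr1, Egr3, Klf2 and Klf6 were named outside this rule, after their values had been seen, as were the CArG and PU.1 motifs. Promoters came from RefSeq (GRCr8); no build is named for the probesets.

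The fits were repeated with other filters, probeset rules, normalization, moderation, array weights, a replicate block, only the 2 groups compared, and each array left out in turn.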

Additional observations from a re-analysis of the deposited data

How the results depend on the processing

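No member differed in sign from sham in any of 18 alternative fits at either day. At 3 days 3 members passed, 1 without a filter, with all probesets tested or with a replicate block (Egr2 each time), 0 with only the 2 groups in the limma fit (8 at an unadjusted p under 0.05) and 1 in every fit without 1 array. At 10 days 1 passed, 2 under quantile normalization (Egr2 and Klf4), 0 without a filter, with all probesets or with the block (8, 7 and 8 at an unadjusted p under 0.05), and 0 to 1 without 1 array. On the F test 1 passed, 2 with the filter at the 50th percentile or an intensity trend, 3 with quantile normalization or array weights, 0 with all probesets, and 0 to 1 without 1 array. Genes past the test at 3 days were 401, against 149 with all probesets, 264 with the block, 134 with 2 groups and 190 to 327 without 1 array. At 10 days they were 103, against 0 without a filter, with all probesets or with the block (2498, 1925 and 2163 at an unadjusted p under 0.05), 173 with the 50th percentile, 170 with quantile normalization, 173 with the trend, 197 with array weights, 61 with 2 groups and 0 to 140 without 1 array. Between the days they were 10 (3 higher, 7 lower; 1 and 7 under quantile normalization), against 0 with all probesets or the block (1266 and 1511 unadjusted), 3 with 2 groups and 0 to 18 without 1 array. The wider tables of all probesets and no filter adjust over more tests, and the other causes were not tested. Between the days quantile normalization turned the differences of Egr2 (0.021) and Tgm2 (0.025). Without 1 array those of Egr2 ran from -0.14 to 0.058, Chi3l1 -0.12 to 0.071, Klf4 -0.010 to 0.13, Il10ra -0.085 to 0.054, Stat3 -0.038 to 0.040 and Tgm2 -0.066 to 0.016, and that of Klf10 at 10 days against sham from -0.049 to 0.22. Among the fits without 1 array, the gene count at 3 days moved by over 1.5 times without sham rat 1 (256), sham rat 2 (190), sham rat 3 (240) or 3-day rat 2 (194), and that at 10 days was 11, 0 and 0 without sham rats 1, 2 and 3, 45 without 3-day rat 2, and 1, 2 and 0 without 10-day rats 1, 2 and 3. The labels do not say whether rats with the same replicate number were handled together. Deviations of same-numbered arrays correlated at -0.095 to 0.084 over 9 pairs, and the own number correlated best in 3 of 18 cases. With so few arrays in a group these values cannot exclude a pairing. Signals near the filter, as for Chit1 and the Kupffer cell genes Cd163, Timd4 and Vsig4, limit what can be seen of those genes.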
